A study of Mus musculus with 868 samples.

Results

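The comparison is acetaminophen in spleen: 2 libraries from mice given acetaminophen, labelled APAP, against 6 spleen libraries from mice that were not given it. The 6 reference libraries are 2 from mice labelled WT(No treated), 2 from mice labelled FivePercentSucrose and 2 from mice given sofosbuvir, an inhibitor of the hepatitis C virus polymerase. These 8 libraries are part of 36 spleen libraries in 18 treatment groups, and of 868 libraries in the series. All mice were C57BL/6N, and RNA was read from the 3′ ends of transcripts. The sample titles place the APAP mice at 2 hours. They give no dose, route, vehicle, feeding state, age or sex, and no time for the sucrose or sofosbuvir mice. Nothing in the labels says that replicates are separate mice, so the tests measure the spread between libraries, which may be partly technical.

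Acetaminophen is an analgesic that the liver clears by conjugation and, at high doses, oxidises to a reactive quinone imine that depletes glutathione. The spleen is a lymphoid organ of B cell follicles, T cell zones and red pulp macrophages that clear old red cells. Glucocorticoids, the adrenal stress hormones, act in lymphocytes and myeloid cells through a nuclear receptor that binds DNA, and raise genes such as Fkbp5, Tsc22d3 and Dusp1 within hours. The series title gives prediction of clinical outcome from mouse organ transcriptomes as its purpose, and the question here was which spleen genes differed with acetaminophen.

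The APAP libraries held 814679 and 705890 counts. The sucrose and sofosbuvir libraries held 828596 to 1041335 counts, and the untreated libraries 3658434 and 4324926. Over all 18 groups, the first principal component took 55.5% of the variance and set the 4 groups compared here (38.4 to 54.5) apart from the other 14 (-20.3 to -1.96). The 2 APAP libraries were less alike than those of the other groups, with a correlation of log2 CPM (counts of a gene scaled to the library total) of 0.943 against 0.9573 to 0.9865. Markers of spleen cells were present in every library: summed B cell markers reached 2931 to 4497 CPM, T cell markers 872 to 1096 CPM, and monocyte and macrophage markers 4543 to 5393 CPM. The 4 hemoglobin genes listed as red cell markers had 0 counts in all 8 libraries, although the other red cell precursor markers summed to 467 to 1516 CPM. These 0 counts were not read as absence of hemoglobin RNA. Exocrine pancreas markers summed to 145 to 231 CPM with APAP and 60.5 to 310.5 CPM in the reference.

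Of 10185 genes tested, 490 rose with APAP, which is 4.81% of them, and 531 fell, which is 5.21%, at an adjusted p under 0.05. A called gene's fold change was more often under than over a factor of 2: 156 of the genes that rose had a log2 fold change above 1 and 100 of those that fell had one below -1. The median log2 fold change of all genes was 0.016. Both APAP libraries lay above all 6 reference libraries for 1052 genes, which is 10.3%, and below all 6 for 1152, which is 11.3%. The groups without acetaminophen also differed: 190 genes, which is 1.87%, differed between sucrose and untreated, and 40, which is 0.393%, between sofosbuvir and the other 2 reference groups. Without APAP replicate 1, 137 genes rose and 189 fell, and without APAP replicate 2, 296 rose and 458 fell. The count of genes that rose was 318 without sofosbuvir replicate 1 and 322 without untreated replicate 2. Against single reference groups, 735 genes rose relative to untreated, 196 relative to sucrose and 122 relative to sofosbuvir.

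Glucocorticoid-responsive genes formed the list with the most members raised, among 33 lists chosen with earlier results of these data known. Of 24 members tested out of 25 listed, 14 rose and 1 fell, against 4.81% and 5.21% of all genes, and the list's median log2 fold change was 1.08. The members that rose were Errfi1, Cdkn1a, Dusp1, Fkbp5, Zbtb16, Tsc22d3, Sesn1, Irs2, Mt1, Il7r, Klf9, Ddit4, Per1 and Cxcr4. The kinase gene Stk38 fell, with 217 and 302 CPM against 377 to 435 CPM (log2 fold change -0.63 ± 0.13), and 9 members did not pass. Without APAP replicate 1 the count that rose was 7, and without APAP replicate 2 it was 12. DESeq2 on the 8 libraries gave 8. The receptor gene itself, Nr3c1, which is not on the list and was looked up after values were seen, stood at 149 and 172 CPM with APAP and 127 to 181 CPM in the reference (log2 fold change 0.09 ± 0.15, adjusted p = 0.757). Over all genes DESeq2 called 145 that rose and 288 that fell, a more unequal split than 490 and 531.

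Promoters of 5 members are shown: Dusp1, Errfi1 and Fkbp5, which were among the members with the largest rise, and Mt1 and Mt2, a neighbouring pair of which 1 passed the test. They are RefSeq windows of 300 bases (GRCm38.p6) around a transcription start, most of it upstream, written 5′ to 3′ on the gene's strand. Dusp1 (chr17:26508423-26508722, minus strand) and Errfi1 (chr4:150854820-150855119, plus strand) are the only 2 of 24 members with a promoter in the table that hold the cAMP response element TGACGTCA, in capitals. It begins at -143 from the start in Dusp1 and at -51 in Errfi1, and 1.79% of 32851 promoters hold it. Another Errfi1 start in the table has a window without it. Here and below a member was counted if any of its starts holds the motif. The share over all promoters counts each start singly, so the 2 shares are not alike.
Dusp1: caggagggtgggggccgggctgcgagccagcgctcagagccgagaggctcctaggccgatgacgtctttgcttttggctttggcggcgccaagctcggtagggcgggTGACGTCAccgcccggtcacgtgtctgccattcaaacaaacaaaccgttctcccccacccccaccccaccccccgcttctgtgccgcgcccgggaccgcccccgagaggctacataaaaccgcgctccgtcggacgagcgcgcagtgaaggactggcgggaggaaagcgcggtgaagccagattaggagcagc
Errfi1: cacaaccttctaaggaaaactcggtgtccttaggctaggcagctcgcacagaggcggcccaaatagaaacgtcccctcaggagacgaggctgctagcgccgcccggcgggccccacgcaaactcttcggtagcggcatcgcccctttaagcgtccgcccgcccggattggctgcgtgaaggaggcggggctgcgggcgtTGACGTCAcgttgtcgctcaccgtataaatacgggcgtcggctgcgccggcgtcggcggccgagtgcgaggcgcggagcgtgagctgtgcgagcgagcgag
The Fkbp5 window (chr17:28486100-28486399, minus strand) holds the E-box CACGTG, in capitals, at -169. Of the 24 members 7 hold this motif at any start, and 7.15% of all promoters, counted singly, do.
Fkbp5: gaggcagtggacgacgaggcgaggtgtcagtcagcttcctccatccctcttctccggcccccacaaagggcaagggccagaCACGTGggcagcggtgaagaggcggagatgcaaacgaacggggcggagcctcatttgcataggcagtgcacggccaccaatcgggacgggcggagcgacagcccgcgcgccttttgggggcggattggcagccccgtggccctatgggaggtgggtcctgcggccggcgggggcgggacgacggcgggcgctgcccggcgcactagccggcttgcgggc
No window shown here holds the 15-base palindromic glucocorticoid response element that was searched, which occurs in 0.00913% of all promoters. Of the 24 members 1, Sgk1, holds it.

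Fkbp5 (ENSMUSG00000024222.17, mm10 chromosome 17, 28399094 to 28517527, minus strand) encodes a co-chaperone that binds the glucocorticoid receptor complex and dampens it. It stood at 453 and 438 CPM with APAP, against 86.1 and 149 CPM in untreated, 113 and 107 CPM in sucrose and 164 and 109 CPM in sofosbuvir. Both APAP values lay far above the highest reference value, and the reference groups overlapped each other. The log2 fold change was 1.89 ± 0.21 (SE; adjusted p = 4.87e-08, n = 2 against 6). Relative to untreated, sucrose and sofosbuvir alone it was 1.93, 2.01 and 1.72.

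Dusp1 encodes a phosphatase that switches off MAP kinases. Its annotation on chromosome 17 (26505590 to 26562128, minus strand) overlaps Ergic1 on the other strand, and the strand setting of the counting is not given in the sources used here. It stood at 188 and 216 CPM with APAP, 56.7 and 60.5 CPM in untreated, 27.1 and 57.7 CPM in sucrose and 63.9 and 45.5 CPM in sofosbuvir. No reference library came near the APAP libraries, and the log2 fold change was 1.96 ± 0.20 (adjusted p = 7.21e-09). Tsc22d3, which encodes the leucine zipper protein GILZ, stood at 442 and 496 CPM with APAP and at 106 to 221 CPM in the reference (log2 fold change 1.45 ± 0.23, adjusted p = 2.87e-05). Klf9, a transcription factor gene, stood at 195 and 229 CPM against 77.7 to 113 CPM (1.12 ± 0.16, adjusted p = 4.35e-06). For these 4 genes the groups did not overlap, and the call held under all alternatives run.

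Errfi1 encodes an inhibitor of the epidermal growth factor receptor. It stood at 69.2 and 54.8 CPM with APAP and at 4.93 to 21.7 CPM in the reference, a log2 fold change of 2.15 ± 0.41 (adjusted p = 0.000446). Zbtb16, which encodes the zinc finger protein PLZF of innate-like lymphocytes, rested on few counts, with 20.9 and 17.8 CPM against 3.23 to 8.63 CPM (1.74 ± 0.42, adjusted p = 0.00480). Per1, a repressor of the circadian clock, stood at 90.2 and 79.9 CPM against 36.7 to 56.1 CPM (0.96 ± 0.23, adjusted p = 0.00567). Il7r, the interleukin 7 receptor chain, stood at 203 and 303 CPM against 87.8 to 180 CPM (1.15 ± 0.21, adjusted p = 0.000178). In all 4 the APAP libraries were the 2 highest of the 8.

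The mTOR inhibitor gene Ddit4 stood at 822 and 768 CPM with APAP. Its reference ran from 197 CPM in sucrose replicate 1 to 556 CPM in sucrose replicate 2, the lowest and highest of the 6, and the log2 fold change was 1.04 ± 0.26 (adjusted p = 0.00609). Cxcr4, the chemokine receptor that holds lymphocytes in marrow and germinal centres, showed the same spread in sucrose, 97.4 and 347 CPM, under 417 and 568 CPM with APAP (0.96 ± 0.27, adjusted p = 0.0176). Irs2, an insulin receptor substrate gene, stood at 31.4 and 34.0 CPM with APAP, and was at 5.52 and 8.23 CPM in untreated and at 20 and 25.6 CPM in sofosbuvir. Its log2 fold change was 2.24 relative to untreated and 0.52 relative to sofosbuvir (adjusted p = 0.568 for the latter), so that call depended on the reference. Members that did not pass included Sgk1, a sodium-retaining kinase gene (0.70 ± 0.27, adjusted p = 0.0893), Nfkbia, the NF-kB inhibitor gene (0.01 ± 0.11, adjusted p = 0.985), and Cd163, a macrophage hemoglobin scavenger receptor gene (0.08 ± 0.20, adjusted p = 0.858).

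**Figure D1:**
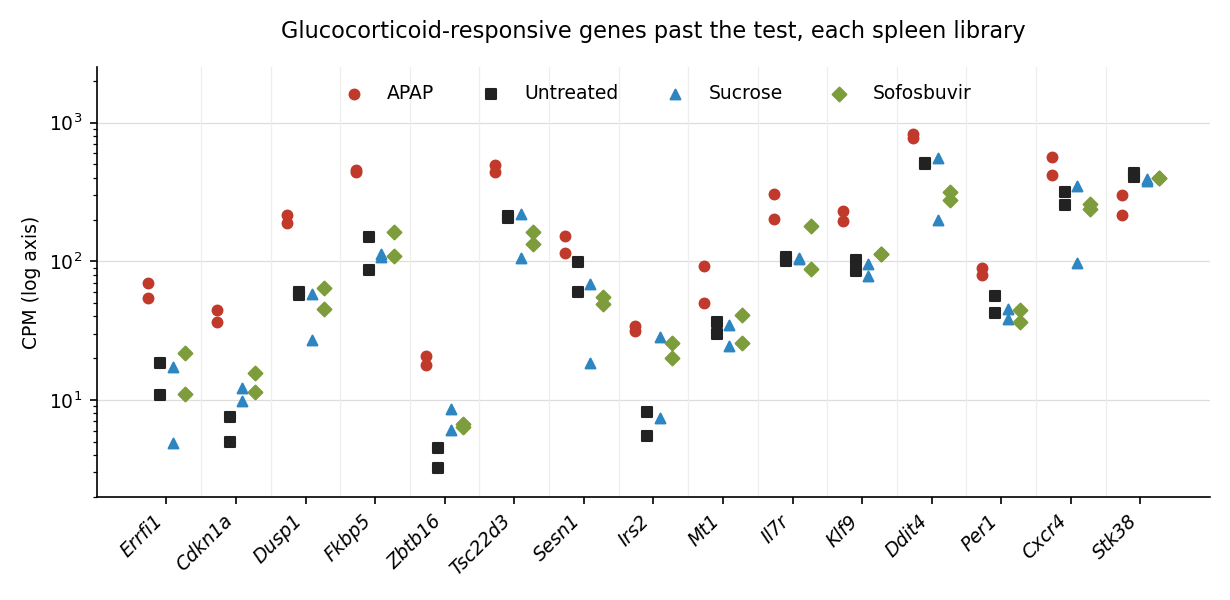
CPM on a log axis of the 15 glucocorticoid-responsive genes that passed the test, 1 point per spleen library, with 2 libraries in each of 4 groups. The 2 APAP points lie above the 6 reference points for the 14 genes that rose and below them for Stk38.

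The metallothionein genes Mt1 and Mt2 encode small zinc-binding proteins and lie next to each other. Both windows hold several metal response elements, TGCACNC or TGCGCNC on either strand, in capitals. Mt1 (chr8:94178839-94179138, plus strand) holds 3, and Mt2 (chr8:94172368-94172667, plus strand) holds 4. At least 1 such element occurs in 25.7% of all promoters and at least 3 in 1.97%.
Mt1: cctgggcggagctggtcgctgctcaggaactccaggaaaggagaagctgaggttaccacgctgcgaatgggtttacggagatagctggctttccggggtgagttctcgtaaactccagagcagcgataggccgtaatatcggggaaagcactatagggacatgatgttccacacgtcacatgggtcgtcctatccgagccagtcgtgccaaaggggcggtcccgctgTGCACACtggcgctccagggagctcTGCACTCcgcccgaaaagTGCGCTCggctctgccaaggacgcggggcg
Mt2: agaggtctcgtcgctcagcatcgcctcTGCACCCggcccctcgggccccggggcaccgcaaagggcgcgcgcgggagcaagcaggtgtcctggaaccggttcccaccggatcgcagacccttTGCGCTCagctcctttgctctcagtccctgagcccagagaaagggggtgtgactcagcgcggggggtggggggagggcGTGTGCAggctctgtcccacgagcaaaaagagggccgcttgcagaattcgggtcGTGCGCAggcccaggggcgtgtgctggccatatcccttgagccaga
Mt1 stood at 92.8 and 50.3 CPM with APAP and at 24.3 to 41.1 CPM in the reference, and rose by a log2 fold change of 1.18 ± 0.21 (adjusted p = 0.000161). Mt2 stood at 79.7 and 59.2 CPM against 32.1 to 66.7 CPM, with overlapping groups and a log2 fold change of 0.66 ± 0.23 (adjusted p = 0.0560). Its sofosbuvir libraries held 60 and 66.7 CPM. Of 7 metallothionein and zinc transporter genes tested out of 9 listed, Mt1 alone passed, and the list's median was 0.16.

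Immediate early genes are transcription factor and phosphatase genes that respond to a signal without new protein. Of 20 tested out of 27 listed, 3 rose, against 4.81% of all genes, and none fell, with a median log2 fold change of 0.17. They were Dusp1, Fos and Egr1. Fos, a subunit of the AP-1 factor, stood at 31.4 and 16.3 CPM with APAP, 1.26 and 1.47 CPM in untreated, 3.70 and 5.06 CPM in sucrose and 10.2 and 12.2 CPM in sofosbuvir. The reference groups thus differed among themselves. The log2 fold change was 2.50 ± 0.50 (adjusted p = 0.000728) relative to all 3 and 1.08 relative to sofosbuvir alone (adjusted p = 0.377). Egr1, a zinc finger factor, stood at 120 and 93.2 CPM against 47.6 to 62.2 CPM (0.97 ± 0.18, adjusted p = 0.000232).

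Genes of growth arrest and cell death were raised in part. Of 16 p53 target genes tested out of 22 listed, 4 rose (Cdkn1a, Trp53inp1, Bbc3 and Sesn1), against 4.81% of all genes, and none fell, and the median was 0.15. Cdkn1a, the inhibitor of cyclin-dependent kinases p21, is also on the glucocorticoid list. It stood at 36.6 and 44.4 CPM with APAP and at 5 to 15.6 CPM in the reference (2.02 ± 0.28, adjusted p = 2.92e-06). Trp53inp1, an autophagy and stress gene, stood at 179 and 161 CPM against 60 to 110 CPM (1.24 ± 0.16, adjusted p = 6.64e-07). Of 19 apoptosis regulators tested out of 22 listed, 4 rose and 2 fell, against 4.81% and 5.21% of all genes, with a median of 0.10. Among the BH3-only killers, Bcl2l11 stood at 102 and 132 CPM against 45.6 to 61.1 CPM (1.17 ± 0.16, adjusted p = 3.61e-06), and Bbc3 at 65.3 and 93.2 CPM against 25.9 to 46.6 CPM (1.22 ± 0.21, adjusted p = 0.000153). Bmf rose by 1.10 and the inhibitor Birc3 by 0.69. The pore-forming Bak1 fell by 1.30 and the survival gene Mcl1 fell by 0.47 on the log2 scale.

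Genes of fasting and lipid oxidation rose in 7 of 18 members tested out of 26 listed, against 4.81% of all genes, and none fell. Their median was 0.48. Txnip (chromosome 3, 96557957 to 96561883, plus strand, overlapping Gm15441 on the other strand) encodes a thioredoxin-binding protein that limits glucose uptake. It stood at 2166 and 2774 CPM with APAP. Its reference values were 979 and 981 CPM in untreated, 517 and 1111 CPM in sucrose and 621 and 917 CPM in sofosbuvir, all below both APAP libraries. The log2 fold change was 1.53 ± 0.15 (adjusted p = 2.75e-09). Cpt1a, which carries fatty acids into mitochondria, stood at 102 and 93.2 CPM against 40.2 to 71.1 CPM (0.88 ± 0.17, adjusted p = 0.000432). Angptl4, Sesn3, Acadm and Irs2 also passed, at 0.61 to 1.19. The count was 3 without APAP replicate 1, 2 without APAP replicate 2, 4 without sofosbuvir replicate 2, 3 relative to sucrose alone and 2 relative to sofosbuvir alone. Of the 7, Txnip was called under every alternative run. Pdk4, a pyruvate dehydrogenase kinase gene, had 6 counts with APAP and a log2 fold change of 0.35 (adjusted p = 0.855).

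In sterol metabolism, 3 of 24 genes tested fell and 1 rose, against 5.21% and 4.81% of all genes, with a median of -0.25. The sterol enzyme genes Cyp51 and Hmgcs1 fell by 1.31 and 0.74 on the log2 scale. The cholesterol exporter gene Abca1 moved the other way, with 94.1 and 111 CPM against 27.4 to 61.1 CPM (1.24 ± 0.17, adjusted p = 2.47e-06).

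Among lymphocyte activation genes, 4 of 23 tested rose and 2 fell, against 4.81% and 5.21% of all genes, with a median of 0.15. Ctla4, an inhibitory receptor of regulatory and activated T cells, stood at 35.3 and 19.2 CPM with APAP, 5.77 and 8.23 CPM in untreated, 6.17 and 5.06 CPM in sucrose and 2.56 and 4.44 CPM in sofosbuvir. The log2 fold change was 2.38 ± 0.48 (adjusted p = 0.000715), from 40 counts with APAP and 67 in the reference. Cd69, an early activation and retention receptor, stood at 27.4 and 25.2 CPM against 8.63 to 14.2 CPM (1.12 ± 0.34, adjusted p = 0.0304). Its call was lost in 9 of 17 alternatives, among them each reference group alone. Cxcr4 rose by 0.96. Nfkb2, a subunit of NF-kB, and Bcl2a1b, a survival gene, fell by 0.86 and 0.72 on the log2 scale. Each of these calls was lost in 7 of 18 alternatives.

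Several further genes rose with small errors and were picked after their values were seen. Rgs1, a brake on chemokine receptor signalling, stood at 140 and 97.7 CPM with APAP and at 21 to 42.5 CPM in the reference (1.82 ± 0.18, adjusted p = 2.75e-09). Ptpn22, a lymphocyte phosphatase gene, stood at 149 and 158 CPM against 35.5 to 66.4 CPM (1.84 ± 0.21, adjusted p = 8.34e-08). The mRNA decay factor gene Zfp36l2 stood at 804 and 833 CPM against 196 to 443 CPM (1.48 ± 0.17, adjusted p = 5.18e-08). The arrestin gene Arrdc3, a relative of Txnip, rose by 1.44 ± 0.26, and Pdcd4, a translation inhibitor gene, by 1.45 ± 0.17. The cold-inducible RNA-binding protein genes Cirbp and Rbm3 rose by 1.44 ± 0.20 and 0.61 ± 0.14.

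By the rule that ranks genes outside the reference range by fold change, the 15 leading genes that rose were Shank3, Fos, Zbtb39, Ctla4, Cyp2d22, Snora81, Gorab, Cd14, Errfi1, Snora30, Cdkn1a, Hist1h1c, Dusp1, H60b and Fkbp5, at 1.89 to 2.54. Many rested on few counts, such as 9 with APAP for the synaptic scaffold gene Shank3. Only 4 of these 15 were called under every alternative run: Snora81, Cdkn1a, Dusp1 and Fkbp5. Cd14, the lipopolysaccharide co-receptor of monocytes, stood at 24.8 and 19.2 CPM against 1.28 to 9.12 CPM (2.24 ± 0.42, adjusted p = 0.000376). Hist1h1c, a linker histone gene, stood at 40.5 and 22.2 CPM against 3.51 to 14.8 CPM (2 ± 0.36, adjusted p = 0.000223). Snora81 lies within Eif4a2 and Snora30 within Srcap on the same strand, and H60b overlaps Raet1e, so reads of these genes and their hosts or neighbours may be shared. Snora81 was at 222 and 141 CPM with APAP, 56.7 to 88.2 CPM in sucrose and sofosbuvir, and 8.79 and 8.23 CPM in untreated, so its fold differed by reference: 4.4 on the log2 scale relative to untreated and 1.27 relative to sofosbuvir.

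Heat shock and chaperone genes fell more often than they rose. Of 26 tested out of 27 listed, 6 fell, against 5.21% of all genes, and 1 rose. The median was -0.33, and both APAP libraries lay below all 6 reference libraries for 10, against 11.3% of all genes. Hsp90aa1, the inducible cytosolic HSP90 gene, stood at 316 and 389 CPM with APAP, 643 and 761 CPM in untreated, 650 and 661 CPM in sucrose and 796 and 669 CPM in sofosbuvir. The groups were far apart, and the log2 fold change was -0.98 ± 0.16 (adjusted p = 5.72e-05). Hspa8, the constitutive HSP70 gene, stood at 783 and 804 CPM against 1083 to 1474 CPM (-0.71 ± 0.14, adjusted p = 0.000786). Hspe1, the mitochondrial HSP10 gene, fell by 0.78, the co-chaperone gene Dnaja1 fell by 0.89, Hsp90ab1 fell by 0.43 and the endoplasmic reticulum chaperone gene Hspa5 fell by 0.36 on the log2 scale. Herpud1, of endoplasmic reticulum degradation, rose by 0.55. Hspd1 (-0.19 ± 0.15, adjusted p = 0.454) and Calr (-0.04 ± 0.12, adjusted p = 0.870) did not pass. The count that fell was 3 without APAP replicate 1 and 3 relative to sucrose alone.

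Among genes picked after their values were seen were 3 tubulin genes that fell, Tuba1a, Tuba4a and Tubb2a. Tuba1a stood at 81.0 and 121 CPM with APAP and at 206 to 271 CPM in the reference (-1.25 ± 0.16, adjusted p = 5.70e-07). Tuba4a fell by 1.27 ± 0.19 and Tubb2a fell by 1.38 ± 0.25 on the log2 scale. The G1 cyclin genes Ccnd1 and Ccnd2 fell as well: Ccnd1 stood at 182 and 141 CPM against 287 to 376 CPM (-1.02 ± 0.14, adjusted p = 3.32e-06). Of 32 cell division genes tested, these 2 fell and Rrm2, a subunit of ribonucleotide reductase, rose (0.93 ± 0.29, adjusted p = 0.0350). These shares, 6.25% and 3.12%, are near the 5.21% and 4.81% of all genes. Rrm2 was high in 1 library, at 78.4 CPM in APAP replicate 1 and 29.6 CPM in replicate 2, against 24.7 to 34.4 CPM, and without replicate 1 its log2 fold change was -0.01.

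B cell markers fell in 4 of 14 members tested, against 5.21% of all genes, and none rose. The median was -0.27 and the summed level was 2931 and 3094 CPM with APAP against 3747 to 4497 CPM in the reference. Cr2, described below, is a large part of that sum. In bulk RNA fewer cells of a type and less RNA per cell cannot be told apart. Cr2 (chromosome 1, 195136811 to 195176716, minus strand) encodes complement receptor CD21 of mature B cells and follicular dendritic cells. It stood at 486 and 491 CPM with APAP. Its reference values were 1325 and 1198 CPM in untreated, 1264 and 1239 CPM in sucrose and 1060 and 994 CPM in sofosbuvir. The log2 fold change was -1.27 ± 0.11 (adjusted p = 2.40e-10). The APAP libraries were alike, and the sofosbuvir libraries were the lowest of the reference. Fcer2a, the B cell IgE receptor CD23, stood at 66.6 and 81.4 CPM against 101 to 190 CPM (-0.96 ± 0.19, adjusted p = 0.000554). Spib, a B cell transcription factor, fell by 0.55 and Cd74, the MHC class II chaperone, fell by 0.32 on the log2 scale. The Cd74 call was lost in 10 of 18 alternatives, among them each reference group alone. The B cell receptor genes Cd79a (0.16 ± 0.13, adjusted p = 0.497) and Cd79b (-0.18 ± 0.13, adjusted p = 0.439) did not pass. Relative to sofosbuvir alone 2 B cell markers fell.

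Ltb encodes lymphotoxin beta of lymphoid tissue organisation. It stood at 14.4 and 11.8 CPM with APAP and at 33.4 to 61.7 CPM in the reference (-1.74 ± 0.42, adjusted p = 0.00554). Relative to sucrose alone its log2 fold change was -1.41 and did not pass (adjusted p = 0.109). Xcl1, a chemokine of NK and CD8 T cells, had 0 counts in both APAP libraries and 59 in the reference, at least 2.61-fold lower when 3 counts are allowed over the APAP libraries. H2-M2, a nonclassical MHC gene, had 3 counts with APAP and 189 in the reference. Pooled counts over pooled library sizes gave a ratio of 0.12 (95% exact interval 0.0245 to 0.355, counting error only). In this ratio the deeper untreated libraries weigh most, and the fitted fold was 0.161. H2-M2 did not pass relative to sucrose alone (-2.41, adjusted p = 0.111) or sofosbuvir alone (-2.29, adjusted p = 0.159). Lingo1 had 2 counts against 102, a pooled ratio of 0.148 (0.0177 to 0.548) and a fitted fold of 0.172. It did not pass relative to sucrose alone (-2.64, adjusted p = 0.094) or sofosbuvir alone (-2.25, adjusted p = 0.214). The other genes that led the fall by the naming rule were Ephb3, Pcdh18, Ccr2, Zfp142, Esm1, Wdr53, Il1rn, Col1a1, Gna15, Ube2s and Rhox8, at -2.24 to -1.55. Of the 15 genes named for their fall, 0 were called under every alternative run. Il1rn did not pass relative to untreated alone (-1.20, adjusted p = 0.209) or sucrose alone (-1.55, adjusted p = 0.203).

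Myeloid genes moved in both directions. Ccr2, the chemokine receptor of inflammatory monocytes, stood at 9.15 and 8.88 CPM with APAP and at 25.3 to 52.4 CPM in the reference (-1.94 ± 0.42, adjusted p = 0.00170). The lysozyme gene Lyz2 and the heme oxygenase gene Hmox1 fell by 0.69 and 0.56 on the log2 scale, while Vcam1, an adhesion molecule of red pulp macrophages and endothelium, stood at 1738 and 1881 CPM against 1057 to 1334 CPM (0.63 ± 0.11, adjusted p = 6.87e-05). In all, 2 of 18 monocyte and macrophage markers rose and 3 fell, against 4.81% and 5.21% of all genes, and their summed level was 4973 and 5393 CPM against 4543 to 4851 CPM. Vcam1 is a large part of that sum. Of 19 cytokine and chemokine genes tested out of 34 listed, 3 rose (Socs3, Il1r2 and Tnfaip3) and 3 fell (Il1b, Il1rn and Ccl19), against the same 4.81% and 5.21%. The Socs3 call was lost in 7 of 17 alternatives and the Tnfaip3 call in 3 of 17. Both were lost relative to sofosbuvir alone. Il1b stood at 14.4 and 14.8 CPM with APAP, 24.7 to 32.4 CPM in untreated and sucrose, and 106 and 86.7 CPM in sofosbuvir. Its log2 fold change was -2.71 relative to sofosbuvir and -0.88 relative to untreated (adjusted p = 0.068 for the latter). The summed neutrophil markers were also high in sofosbuvir, at 2243 and 2265 CPM against 519.7 to 1080.5 CPM in the other 6 libraries, and their part in the Il1b, Il1r2 and Cxcr2 values was not tested.

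Stromal and vascular markers changed in 9 of 19 members tested: 6 fell and 3 rose, against 5.21% and 4.81% of all genes. Their median was -0.10, and their sum was 1894.5 and 1928.5 CPM against 2258 to 2518 CPM. The smooth muscle actin gene Acta2 stood at 84.9 and 63.6 CPM against 158 to 207 CPM (-1.23 ± 0.17, adjusted p = 3.61e-06), and the desmin gene Des at 99.3 and 74.0 CPM against 177 to 241 CPM (-1.21 ± 0.17, adjusted p = 5.63e-06). The collagen genes Col1a1 and Col1a2 fell by 1.71 and 0.69, the vascular growth factor receptor gene Kdr fell by 0.81 and the T zone chemokine gene Ccl19 fell by 0.71 on the log2 scale. The fibroblast receptor gene Pdgfra moved the other way, at 74.5 and 82.9 CPM against 22.8 to 35.8 CPM (1.40 ± 0.21, adjusted p = 1.74e-05), as did Dcn (0.65) and Pecam1 (0.43). Without APAP replicate 1 the count that fell was 3.

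**Figure D2:**
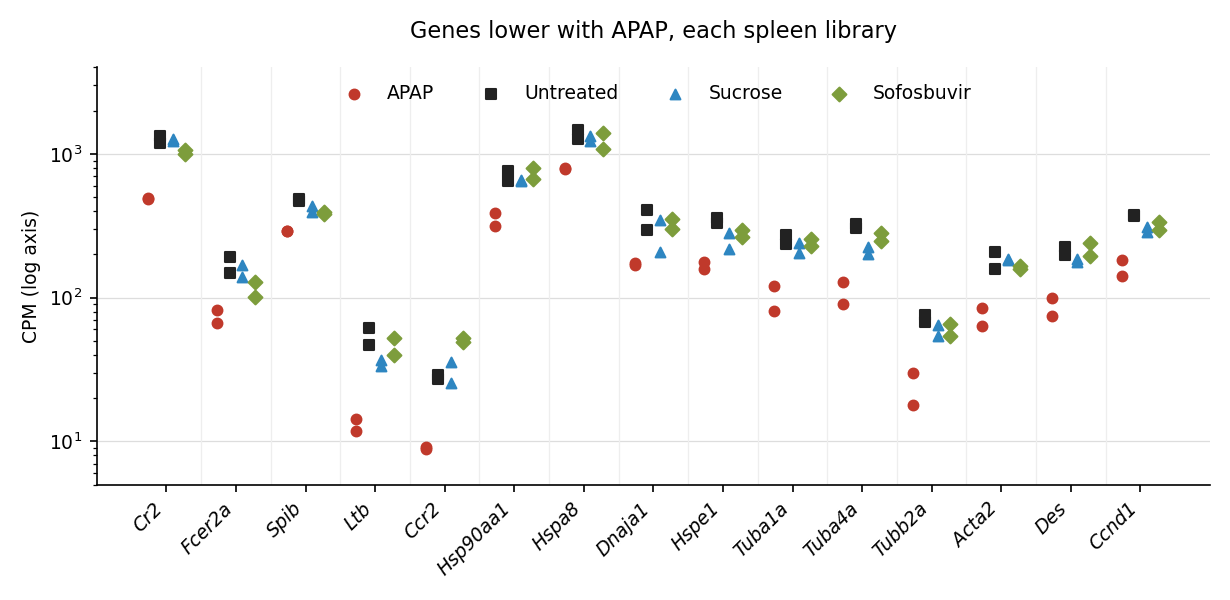
CPM on a log axis of 15 genes that fell, 1 point per spleen library, with 2 libraries in each of 4 groups. Both APAP points lie below the 6 reference points for every gene drawn, as for Cr2 at 486 and 491 against 994 or more.

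**Figure D3:**
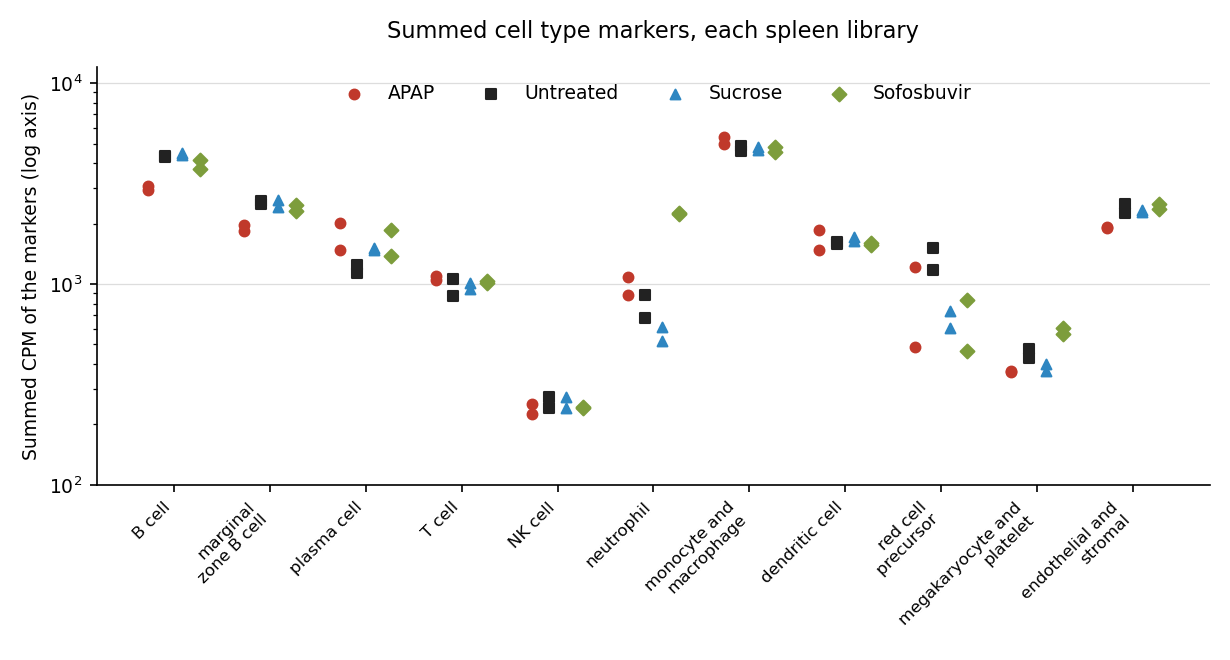
Summed CPM of the markers of 11 cell types on a log axis, 1 point per spleen library. The APAP libraries lie below the reference for B cells, marginal zone B cells, stromal cells and for megakaryocytes and platelets (363.2 and 368.5 CPM against 369.7 to 605.6 CPM). They lie above it for monocytes and macrophages, and the sofosbuvir libraries lie highest for neutrophils. Cr2, which fell, is a large part of the B cell and marginal zone sums. Vcam1, which rose, is a large part of the monocyte and macrophage sum. These sums can therefore follow a single gene and are not read as a shift of all markers of the type.

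Other lists held at most 3 calls in a direction, where 4.81% of all genes rose and 5.21% fell. Of 20 NRF2 targets, the oxidant response genes, 1 rose (the ferritin gene Fth1) and 3 fell (Tkt, Hmox1 and Pgd), with a median of 0.05; Tkt, a pentose phosphate enzyme gene, stood at 49.6 and 81.4 CPM against 92.3 to 143 CPM (-0.86 ± 0.18, adjusted p = 0.00101). Of 15 genes of acetaminophen metabolism and glutathione tested out of 29 listed, none rose and Cyp2e1, the cytochrome P450 that oxidises acetaminophen, fell by 0.67 on the log2 scale (adjusted p = 0.0140). The Cyp2e1 fold change was -0.49 relative to untreated (adjusted p = 0.105), -0.56 relative to sucrose (adjusted p = 0.149) and -0.96 relative to sofosbuvir, and the call was also lost with thinned counts and without APAP replicate 2. Of 25 interferon-stimulated genes Irf1 alone fell, by 0.53, and none rose. Of 17 integrated stress response genes, Ddit4 and Ppp1r15a rose and Atf4 fell. Of 14 clock genes, Per1 and Rora rose and Tef fell. No gene passed among 9 plasma cell and 20 exocrine pancreas markers, nor among the few mast cell, endocrine pancreas and adipocyte markers tested. Among hepatocyte markers Cyp2e1 and the haptoglobin gene Hp fell, Hp with sofosbuvir libraries at 75.4 and 78.9 CPM and all other libraries at 14.2 to 23.1 CPM. Among 9 marginal zone B cell markers tested, Plac8 rose and Cr2 fell. Among 12 dendritic cell markers tested, Irf8 rose and Ly6d fell. Without APAP replicate 1 the log2 fold change of Irf8 was -0.03 and that of Ppp1r15a -0.17. Among 14 neutrophil markers tested, Il1r2 rose and the chemokine receptor gene Cxcr2 fell. Both calls depended on the reference: the log2 fold change of Il1r2 was 1.22 (adjusted p = 0.0334) and 0.36 relative to sofosbuvir alone (adjusted p = 0.759), and that of Cxcr2 was -0.53 (adjusted p = 0.0380) and -0.08 relative to untreated alone (adjusted p = 0.835). Of the alternatives run, Il1r2 was not called in 9 of 17 and Cxcr2 in 7 of 18. The platelet integrin gene Itga2b fell, alone among 9 megakaryocyte and platelet markers tested. The 18 heme and iron genes tested held 1 that rose, Fth1, and 1 that fell, Hmox1. The 14 T cell markers tested held 1 that rose, Il7r, and 1 that fell, Thy1. The 8 NK cell markers tested held 1 that rose, Klrd1, and 1 that fell, Tbx21. In such lists 1 call is 5.56% to 12.5% of the members tested, too few to be read as a change of the list. Several calls in these other lists were lost under alternatives: Rora and Hp in 13 of 18 each, Plac8 in 9 and Thy1 in 8. Ly6d was lost in 7, Klrd1 and Fth1 in 6 each, and Tbx21 in 2. Among 14 red cell precursor markers tested, only Alas2, the first enzyme of heme synthesis, passed, and it fell by 0.94 on the log2 scale. Its call was lost in 4 of 18 alternatives. The median of the list was 0.82, in the other direction, so the Alas2 fall does not stand for the list. The summed level of these markers was 487 and 1211 CPM in the 2 APAP libraries.

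**Figure D4:**
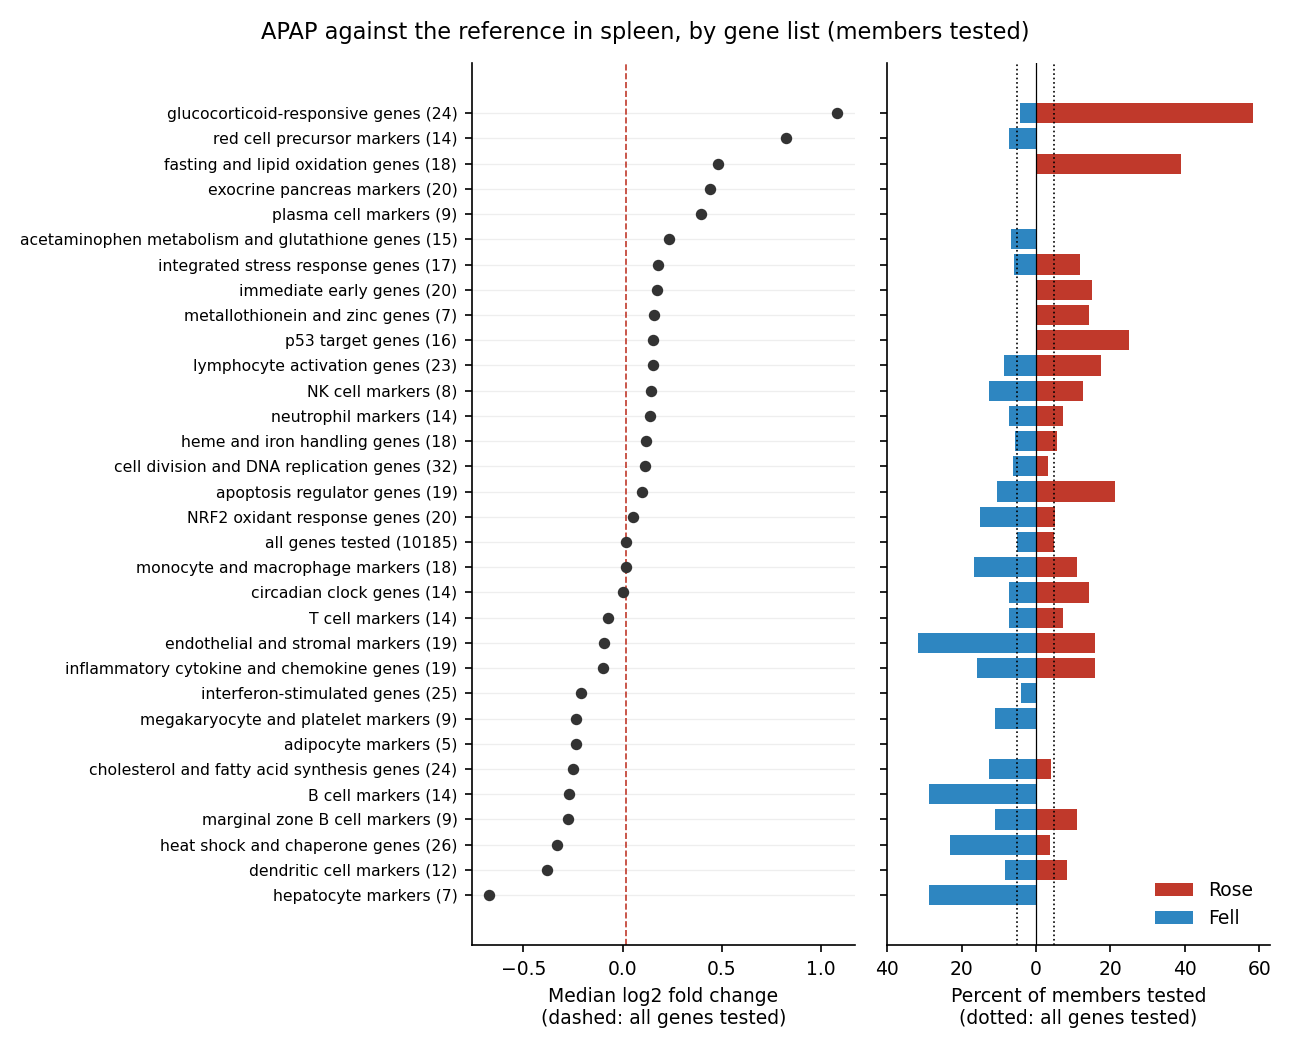
Median log2 fold change (left) and percent of tested members that rose or fell (right) for each gene list with 5 or more members tested. Glucocorticoid-responsive genes lie highest on both scales, at a median of 1.08 and 58.3% raised against 4.81% of all genes. The lists were chosen with earlier results of these data known.

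The APAP response of spleen was then set against that of thymus, another lymphoid organ, in 1 fit of 16 libraries of both tissues. In thymus, 1009 of 10341 genes rose, which is 9.76%, and 1524 fell, which is 14.7%. The response was higher in spleen than in thymus for 506 genes, which is 4.89%, and lower for 308, which is 2.98%. These are 814 differences. Their number was 375 without APAP spleen replicate 1, 518 without APAP thymus replicate 1 and 410 without APAP thymus replicate 2. Cell division genes fell in thymus: 31 of 33 tested passed, with a median of -2.03, against 14.7% of all genes. The response of 27 was higher in spleen and that of 2 lower. Rrm2 stood at 24.1 and 13.1 CPM in thymus with APAP against 122 to 182 CPM in its reference (-2.99 ± 0.27), and the spleen response was higher by 3.89 ± 0.39 (adjusted p = 3.26e-07). The centromere gene Cenph and the condensin gene Ncapg2 differed by 2.39 ± 0.32 and 3.01 ± 0.57. Without APAP spleen replicate 1, the spleen log2 fold change of Rrm2 was -0.01.

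Glucocorticoid-responsive genes rose in both organs, in 16 of 23 members tested in thymus, against 9.76% of all genes, with a median of 1. Of them 2 differed upward in spleen and 2 downward. Fkbp5 rose by 0.79 in thymus, and the spleen response was higher by 1.06 (adjusted p = 0.00296). Dusp1 rose by 0.93 in thymus, with a difference of 0.99 (adjusted p = 0.0363). Sgk1 rose by 2.05 in thymus, and the spleen response was lower by 1.38 on the log2 scale (adjusted p = 0.0165). Tsc22d3 rose by 1.54 and Klf9 by 1.52 in thymus, and their differences of -0.14 and -0.44 did not pass. Chaperone genes fell in 12 of 26 members in thymus, against 14.7% of all genes, with Hsp90aa1 at -1.80, a difference of 0.78 (adjusted p = 0.00350). Among genes whose response was lower in spleen were Cr2 (-1.77 ± 0.35, adjusted p = 0.00189), Ccr2 (-2.11 ± 0.56), H2-M2 (-2.24 ± 0.64), the complement receptor gene C5ar2 (-2.18 ± 0.49), the protease gene Capn1 (-2 ± 0.47) and Ifi205 (-1.71 ± 0.43).

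Against bone marrow, fewer differences passed. In marrow 251 of 9714 genes rose, which is 2.58%, and 149 fell, which is 1.53%. The response was higher in spleen for 10 genes, which is 0.103%, and lower for 51, which is 0.525%. These are 61 differences. Without 1 APAP marrow library their number was 12 (replicate 1) or 15 (replicate 2), and without 1 APAP spleen library 30 (replicate 1) or 168 (replicate 2). Without untreated spleen replicate 2 it was 40, without sucrose marrow replicates 1 and 2 it was 33 and 40, and without sofosbuvir marrow replicate 1 it was 31. In marrow 8 of 23 glucocorticoid-responsive genes rose, against 2.58% of all genes, with a median of 0.70: Fkbp5 by 1.56, Dusp1 by 1.42, Per1 by 1.56, Ddit4 by 2.02, Klf9 by 1.30, Tsc22d3 by 1, Mt2 by 1.07 and Nfkbia by 0.77. Of the list only Nfkbia differed between the organs, by -0.77 in spleen relative to marrow (adjusted p = 0.0449). Cebpd, a myeloid transcription factor gene, rose in spleen by 1.25 ± 0.24 (adjusted p = 0.000461), but by 0.28 relative to sofosbuvir alone (adjusted p = 0.69), and the call was also lost without APAP replicate 1 (1.10, adjusted p = 0.0523). It stood at 83.7 and 80.6 CPM in marrow with APAP against 84.1 to 158 CPM, a difference of 1.76 ± 0.30 (adjusted p = 0.00354). The linker histone genes Hist1h1c and Hist1h1e differed by 1.73 ± 0.41 and 1.54 ± 0.30. Their spleen calls were lost relative to sofosbuvir alone and without APAP replicate 1, where Hist1h1e was at 1.06 and 0.84. Jdp2, an AP-1 repressor gene, differed by 1.31 ± 0.32. Without APAP spleen replicate 1 none of these 3 differences passed: they were 1.17 for Hist1h1c, 0.63 for Hist1h1e and 0.79 for Jdp2 (adjusted p of 0.5 to 0.562). Without APAP marrow replicate 2 none of the 3 passed either (adjusted p of 0.158 to 0.31). Alas2 went the other way, rising by 0.46 in marrow, a difference of -1.40 ± 0.22 (adjusted p = 0.00354). Ltb (-2.40 ± 0.50) and Tubb2a (-1.28 ± 0.31) were also lower in spleen relative to marrow.

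**Figure D5:**
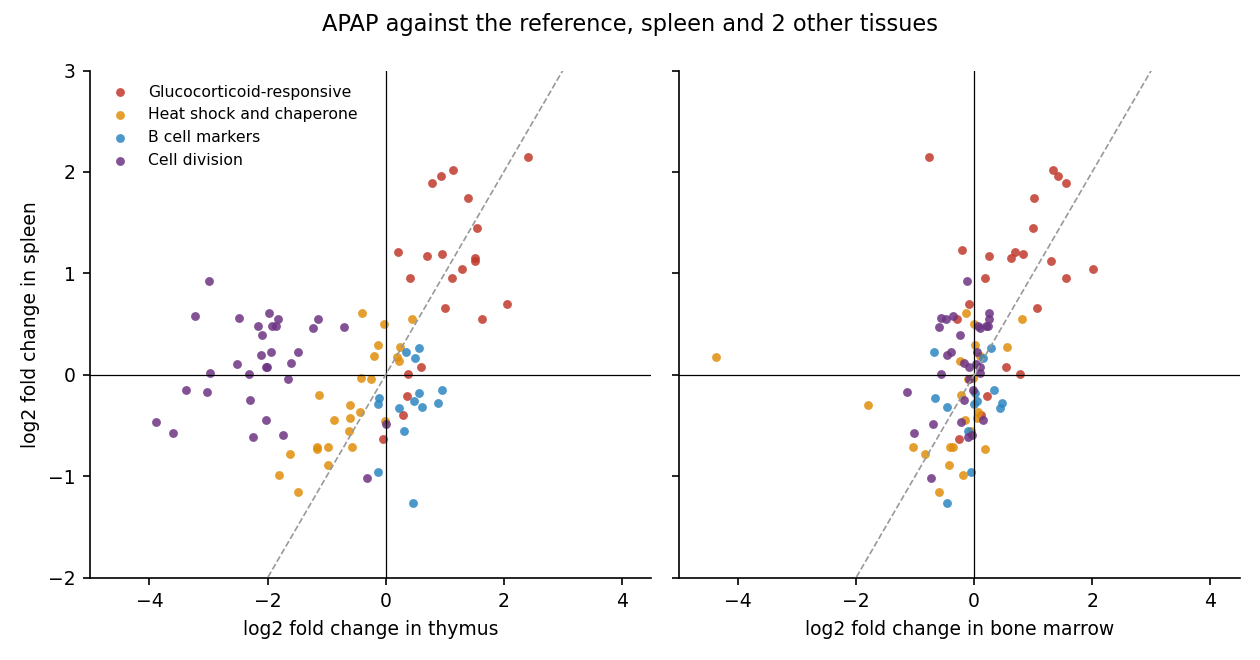
Log2 fold change with APAP in spleen against that in thymus (left) and bone marrow (right), 1 point per gene of 4 lists, with a dashed line of equal change. Cell division genes lie left of 0 in thymus, at a median of -2.03, and glucocorticoid-responsive genes have medians of 1.08 in spleen, 1 in thymus and 0.70 in bone marrow.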

How the data were processed

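RNA from mouse tissue was made into 3′ end libraries with the QuantSeq kit and sequenced on a NextSeq 500, per the labels' protocols. The authors deposited raw counts per gene symbol. The submitters' processing notes name bcl2fastq 2.17, TopHat2 2.1.1, HTSeq 0.9.1 and mm10; the gene annotation and strand setting are not given in the sources used here. Of 24421 symbols, 23376 were found in GENCODE M21.

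Counts were analysed with edgeR 4.0.16 in R 4.3.3 (TMM scaling, filterByExpr with a minimum count of 10, quasi-likelihood test, Benjamini-Hochberg adjustment over all genes tested, threshold 0.05). The model held all 36 spleen libraries in 18 groups (18 residual degrees of freedom), and the contrast was APAP minus the equal mean of the 3 reference groups. Spleen was set against thymus or bone marrow in fits of 16 libraries (8 residual degrees of freedom) with an interaction term. These fits treated libraries of different tissues as independent. The labels do not say whether same-numbered libraries of different tissues share a mouse. DESeq2 1.42.0 served as an alternative. Values printed are CPM, and ± gives the fit's standard error of each fold (log2). The principal components used log2 CPM with a pseudocount of 2.

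Named genes are up to 15 per direction ranked by log2 fold change among those with an adjusted p under 0.05, the same sign against each reference group, both APAP libraries outside the reference range and at least 5 CPM, with Gm and Rik symbols counted and not named. Added to them are list members that passed, a few per list that did not, and up to 6 genes per direction and tissue. The members and the 33 gene lists were chosen with earlier results of these data known. Alternatives were another scaling, no low-count filter, another tool, each reference alone, thinned counts, a replicate block and leaving out each library. APAP totals were 705890 and 814679 counts. Intervals and floors cover counting error only and genes of few counts have wide errors. Beside the 36 spleen libraries, 8 thymus and 8 bone marrow libraries of the same 4 groups were used; the other libraries of the series were not analysed here. A few genes that met the naming rule or belong to a list are not reported here by name; they remain in the counts and medians.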

Additional observations from a re-analysis of the deposited data

Results flagged for a closer look

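The response to APAP differed between spleen and thymus for 814 genes and between spleen and bone marrow for 61, by the test of the difference itself (edgeR interaction term, adjusted p under 0.05). The genes below are among those with the largest differences that also passed in spleen, with each value the spleen minus the other tissue's log2 fold change.

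Against thymus the response was higher in spleen for Rrm2 (3.895), Ncapg2 (3.007), Rpp30 (2.868), Wee1 (2.617) and Cenph (2.392). Rrm2 and Ncapg2 act in nucleotide synthesis and chromosome condensation. Without APAP replicate 1 the spleen log2 fold change of Rrm2 was -0.01. Under alternatives the spleen call of Rpp30 was lost in 10 of 16, that of Wee1 in 10 of 17, that of Cenph in 4 of 17 and that of Ncapg2 in 2 of 17. In thymus itself Rpp30 did not pass (-1.18, adjusted p = 0.144). The response was lower in spleen for H2-M2 (-2.243), C5ar2 (-2.181), Ccr2 (-2.105), Capn1 (-1.996), Cr2 (-1.774) and Ifi205 (-1.708).

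Against bone marrow it was higher in spleen for Cebpd (1.763), Hist1h1c (1.733), Hist1h1e (1.537), Ube2j2 (1.517), Jdp2 (1.31) and Fam107b (0.971). It was lower for Ltb (-2.396), Capn1 (-1.814), Tssc4 (-1.47), Rraga (-1.461), Alas2 (-1.4) and Tubb2a (-1.282). Capn1 was lower in spleen in both comparisons, which share the spleen libraries.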

How the results depend on the processing

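The 2 APAP libraries, 2 per reference group and the lower depth of all but the untreated libraries limit these results. The numbers of genes that rose and fell were 490 and 531. They were 145 and 288 with DESeq2 on the 8 libraries, 196 and 259 against sucrose only, 122 and 253 against sofosbuvir only, and 295 and 320 with all libraries thinned to the lowest total. Leaving out 1 library gave 137 to 404 genes that rose and 189 to 562 that fell. The glucocorticoid-responsive members that rose numbered 14, 8 with DESeq2, and 7 to 14 with 1 library left out. The count for spleen against thymus was 814, and 375 to 871 with 1 library left out. For bone marrow it was 61, 169 with no filter on low counts, and 12 to 168 with 1 library left out. The cause of these shifts was not tested. Without APAP replicate 1 the log2 fold changes of Irf8 (-0.0293), Ppp1r15a (-0.175) and Rrm2 (-0.0149) turned negative, and with 1 library left out they reached up to 0.621, 1.44 and 1.44. Of the single-gene values under alternatives, 2240 kept direction and call, 560 kept direction and lost the call and 3 reversed.

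Differences between replicates 1 and 2 of APAP, sucrose and sofosbuvir correlated between groups at 0.038 to 0.137 over 6769 genes. The untreated libraries, replicates 2 and 4, were not in this check. Counting noise lowers such correlations, so the check cannot show whether the replicate numbers pair the libraries. With the replicate block, 483 genes rose and 503 fell, and the tissue differences numbered 694 (thymus) and 80 (bone marrow). In the tissue fits the block was set within each tissue, so a mouse shared between organs was not modelled.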
